A study of Mus musculus with 14 samples.

Results

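Of the 15036 genes in the deposited tables, 7 are described here: Ide, Synj2, Rell1, Mid1, Gm14085, Erdr1 and Tmem181b-ps. They were chosen by their measured normalized counts: each differed in the same direction between wild-type and Morrbid-/- CD8 T cells with and without IFN-beta, and none is an interferon gene. Their genotype differences chose them, so those differences are given as a description with no test. Without IFN-beta and with it, 6 of them were lower in Morrbid-/- libraries and 1, Tmem181b-ps, was higher.

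The cells were naive CD8 T cells, high in CD62L and low in CD44, sorted from spleens of mice labelled C57BL/6. One genotype was wild type and the other was Morrbid-/-, a loss of the long noncoding RNA gene Morrbid on both chromosomes, and libraries with the second label are called knockout-labelled below. How much of the gene was removed, the subline of C57BL/6 and the age of the mice are not stated in the labels. All cells were cultured for 6 h on anti-CD3 bound to the plate (1 µg/mL) with anti-CD28 in solution (1 µg/mL), antibodies that stand in for antigen and costimulation, and one pair of groups also received 20 ng/mL IFN-beta, a type I interferon. Each genotype had 3 libraries without IFN-beta and 4 with it, made from 100 ng of total RNA. The labels do not say that replicates came from separate animals, so a p-value here measures only how these samples spread, and that spread may be technical.

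Without IFN-beta a library held 2360619 to 2963149 recovered reads in wild type and 1747634 to 2443158 in the knockout-labelled group. With IFN-beta it held 5788070 to 6918633 and 7132515 to 7355337, so every knockout-labelled library was deeper there. Depth and the number of libraries thus differed between the settings, and their part in the counts of calls below was not tested. Morrbid, listed as Gm14005, had 2, 4 and 2 reads in the wild-type libraries without IFN-beta, too few to be tested. The knockout-labelled ones had 7, 4 and 7 reads. Its normalized counts did not overlap, at most 4.16 in wild type and at least 5.24 in the knockout-labelled libraries. Over all reads, the knockout-labelled rate was 2.80 times that of wild type (95% interval 1.16 to 7.43, counting error only). Its reads thus do not show the deletion and were higher in the libraries labelled Morrbid-/-. The genotypes therefore rest on the labels. Morrbid with IFN-beta was not analysed here. Summed over 6 markers of CD8 T cells, normalized counts without IFN-beta were 3453 to 3984 in wild type and 3242 to 3577 in the knockout-labelled libraries. They were 8213 to 8757 and 7689 to 8636 with IFN-beta. With IFN-beta, the measured markers of dendritic cells (2 of 4) summed to 6.14 to 25.7 in wild type and 44.0 to 52.2 in the knockout-labelled libraries. In the same libraries, CD4 and regulatory T cell markers (2 of 3) summed to 612 to 726 and 751 to 910. Myeloid markers (2 of 4) summed to 13.3 to 16.3 and 17.4 to 35.0. Sums of B cell markers (2 of 4) overlapped there, at 9.34 to 18.9 and 12.6 to 28.4. So did the 1 measured NK cell marker, at 0 to 4.88 and 0 to 1.83. All these sums overlapped between genotypes without IFN-beta. For dendritic markers (3 of 4) they were then 8.94 to 16.8 and 16.2 to 24.6. CD4 and regulatory T cell sums were 155 to 313 and 261 to 335, and myeloid ones (4 of 4) 10.4 to 22.3 and 10.1 to 27.5. Whether these sums reflect other cells, and the part of such cells in the values below, was not tested.

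The 7 genes belong to no single pathway. Ide encodes the insulin-degrading enzyme, a zinc metalloprotease that cuts insulin and other short peptides. Synj2 encodes synaptojanin 2, which removes the 5-phosphate of membrane phosphoinositides and acts in endocytosis. Rell1 encodes a membrane protein related to RELT, a member of the tumour necrosis factor receptor superfamily. Mid1 encodes a microtubule-bound ubiquitin ligase that targets the catalytic subunit of protein phosphatase 2A and is known to act in granule release by cytotoxic T cells. Gm14085 is a close copy of Slc28a2, which encodes a sodium-coupled nucleoside transporter. Erdr1, erythroid differentiation regulator 1, is known as a secreted factor linked to stress, and Tmem181b-ps is a transcribed pseudogene related to the membrane protein gene Tmem181a.

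Several of these genes have near-identical copies, and sequences of those pairs are shown because a 75-base read from a shared stretch can be given to one copy only where the other read of its pair lies outside it. Transcripts are from GENCODE M21 (GRCm38), and bases are counted from the first coding base, or from the first transcript base for Tmem181b-ps and Mid1-ps1, which have no coding sequence there. Each stretch is the 75-base stretch of the aligned pair with the most differences, and capitals mark the bases that differ. For Gm14085 and Slc28a2 it spanned bases 423 to 497 of both and held 24 differences.
Gm14085: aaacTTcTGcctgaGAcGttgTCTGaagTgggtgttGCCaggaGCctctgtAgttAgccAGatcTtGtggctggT
Slc28a2: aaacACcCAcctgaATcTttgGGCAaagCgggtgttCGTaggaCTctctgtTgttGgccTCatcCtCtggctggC
For Tmem181b-ps and Tmem181a it spanned bases 2 to 76 and 133 to 207 and held 2 differences.
Tmem181b-ps: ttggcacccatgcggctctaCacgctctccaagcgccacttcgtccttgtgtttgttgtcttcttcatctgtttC
Tmem181a: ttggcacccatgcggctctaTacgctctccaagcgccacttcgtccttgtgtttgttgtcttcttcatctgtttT
For Mid1 and Mid1-ps1 it spanned bases 1114 to 1188 and 358 to 432 and held 4 differences.
Mid1: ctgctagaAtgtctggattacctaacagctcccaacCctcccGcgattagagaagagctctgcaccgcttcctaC
Mid1-ps1: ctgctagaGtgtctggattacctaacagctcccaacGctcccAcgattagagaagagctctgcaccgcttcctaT
All 528 coding bases of Erdr1 (matched by position to Gm21887 in GENCODE) occur unchanged in Gm47283 on chromosome Y, and the first 75, the same in both, are shown once.
Erdr1: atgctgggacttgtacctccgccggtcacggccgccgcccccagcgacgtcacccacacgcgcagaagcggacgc

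Over the aligned bases, identity was 94.9% for Gm14085 and Slc28a2, 99.5% for Tmem181b-ps and Tmem181a, 99.6% for Mid1 and Mid1-ps1, and 100% for Erdr1 and Gm47283. Of all 75-base stretches in the gene's transcripts, the share also present in a transcript of another gene was 57.1% for Erdr1, 41.1% for Tmem181b-ps, 26.3% for Mid1 and 21.6% for Gm14085. It was 2.63% for Synj2 and 0.946% for Rell1, and no stretch of Ide was shared. The values of Erdr1, Tmem181b-ps, Mid1 and Gm14085 are therefore uncertain in which copy they count. Overlapping or antisense genes may also share reads, since the strand setting of the counting is not given in the sources used here.

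Normalized counts are reads scaled by a single factor in each library, deposited by the authors in one table per stimulation. Normalization was done table by table, and levels under the 2 stimulations are therefore set side by side and were not tested against each other. Log2 differences are those of log2(normalized count + 1), knockout-labelled libraries minus wild type, with the standard error (SE) from limma. Where a gene is lower, fewer cells that express it and less RNA per cell cannot be told apart in bulk RNA.

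Ide lies on the minus strand of chromosome 19 (GRCm38, chr19:37268743-37334544). In wild type without IFN-beta its normalized count was 496, 474 and 492, against 234, 270 and 253 in the knockout-labelled libraries. The genotypes did not overlap, and the second group stood at 51.7% of the wild-type mean, a log2 difference of -0.95 (SE 0.10). With IFN-beta the wild-type libraries stood at 632, 686, 596 and 631 and the knockout-labelled ones at 269, 276, 325 and 267. The groups were again apart, at 44.7% of the wild-type mean, with a log2 difference of -1.16 (SE 0.08). Ide was the member with the tightest wild-type replicates without IFN-beta, with a log2 standard deviation (SD) of 0.03 where the median of like-expressed genes was 0.12.

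Synj2 lies on the plus strand of chromosome 17 (chr17:5941280-6055766). Without IFN-beta the wild-type libraries read 44.7, 42.7 and 48.2, and the knockout-labelled ones 7.10, 11.8 and 11.3. All of the latter were low, at 22.2% of the wild-type mean, and the log2 difference was -2.09 (SE 0.28). With IFN-beta the values were 47.2, 37.9, 36.2 and 33.2 in wild type against 7.33, 6.42, 9.88 and 6.39. Here the second group held 19.4% of the wild-type mean, a log2 difference of -2.23 (SE 0.27). These low values rest on 7 to 11 reads per library in either setting.

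Rell1 lies on the minus strand of chromosome 5 (chr5:63889337-63969020). Without IFN-beta the wild-type libraries read 54.5, 63.5 and 44.3 normalized counts, beside 13.2, 13.1 and 16.4 in the other group. The knockout-labelled group held 26.3% of the wild-type mean, a log2 difference of -1.85 (SE 0.25). With IFN-beta it was 95.6, 101, 117 and 95.7 against 26.6, 35.7, 17.1 and 30.1. The groups stayed apart, and the share was nearly the same, 26.7% of the wild-type mean, with a log2 difference of -1.91 (SE 0.19).

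Mid1 lies on the plus strand of the X chromosome (chrX:169685199-169990798), where its far end is known to reach the pseudoautosomal boundary in C57BL/6 mice. Without IFN-beta wild type read 45.6, 34.3 and 55.8 and the knockout-labelled libraries 9.12, 15.7 and 13.3, or 28.1% of the wild-type mean. The log2 difference was -1.76 (SE 0.28). With IFN-beta the wild-type libraries fell into a high pair, 69.6 and 70.3, and a lower pair, 34.8 and 33.9, and the knockout-labelled ones read 30.2, 20.2, 9.88 and 22.8. The groups were separated by less than 4 normalized counts here, at 39.8% of the wild-type mean and a log2 difference of -1.30 (SE 0.30). The wild-type log2 SD of 0.58 exceeded that of 98.3% of genes of like level.

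Gm14085, named Slc28a2b in RefSeq, lies on the plus strand of chromosome 2 (chr2:122484941-122528040), 5.77 Mb from Morrbid. Wild type without IFN-beta read 643, 741 and 668 normalized counts, against 373, 449 and 444 in the knockout-labelled group. The latter were all lower, at 61.7% of the wild-type mean, with a log2 difference of -0.70 (SE 0.10). With IFN-beta the counts were 979, 954, 949 and 877 against 608, 585, 652 and 783. One knockout-labelled library, replicate 4, came closest to wild type, and the group stood at 69.9% of the wild-type mean, a log2 difference of -0.52 (SE 0.08). Slc28a2, the near copy 23.8 kb away, was at 246 ± 52.0 (SD, n = 3) and 216 ± 8.52 (n = 3) without IFN-beta and at 415 ± 23.8 (n = 4) and 373 ± 43.4 (n = 4) with it. It did not pass the test in either setting (limma, Benjamini-Hochberg adjusted p = 0.938 and 0.267), and its log2 difference was -0.16 in both.

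Erdr1 lies on the plus strand of the X chromosome (chrX:170010526-170018797), 19.7 kb beyond Mid1, and is listed as a transcribed pseudogene by RefSeq and as coding by GENCODE. Without IFN-beta wild type read 427, 269 and 456, and the knockout-labelled libraries read 65.9, 81.2 and 113, or 22.5% of the wild-type mean. The log2 difference was -2.13 (SE 0.18). With IFN-beta wild type read 87.3, 62.5, 89.9 and 157, and the knockout-labelled libraries read 0.916, 0, 0.899 and 3.65. The latter were close to 0, resting on 1, 0, 1 and 4 reads against 61 to 161 reads per library in wild type. Over all reads, the wild-type rate was 73.7 times that of the knockout-labelled libraries (95% interval 33.5 to 202) with IFN-beta and 4.53 times (3.94 to 5.22) without it. These intervals cover counting error only. Erdr1 was also variable within wild type, with a log2 SD above that of 99.5% of genes of like level in both settings.

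Tmem181b-ps lies on the minus strand of chromosome 17 (chr17:6439002-6450994), 383 kb from Synj2. Wild type without IFN-beta read 23.2, 26.0 and 29.8 normalized counts, beneath 46.6, 68.1 and 73.7 in the knockout-labelled group. Every knockout-labelled library was above every wild-type library, at 238% of the wild-type mean and a log2 difference of 1.20 (SE 0.22). With IFN-beta it was 38.9, 42.0, 57.2 and 69.3 against 97.1, 111, 120 and 125, or 219% of the wild-type mean, with a log2 difference of 1.14 (SE 0.17). Tmem181a, the coding copy 131 kb away, stood at 15.4 ± 2.18 and 18.7 ± 7.65 (SD, n = 3 each) without IFN-beta and at 14.1 ± 5.79 and 17.8 ± 6.77 (n = 4 each) with it. Its groups overlapped in both settings, and it did not pass (limma adjusted p = 0.967 and 0.621).

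**Figure D1:**
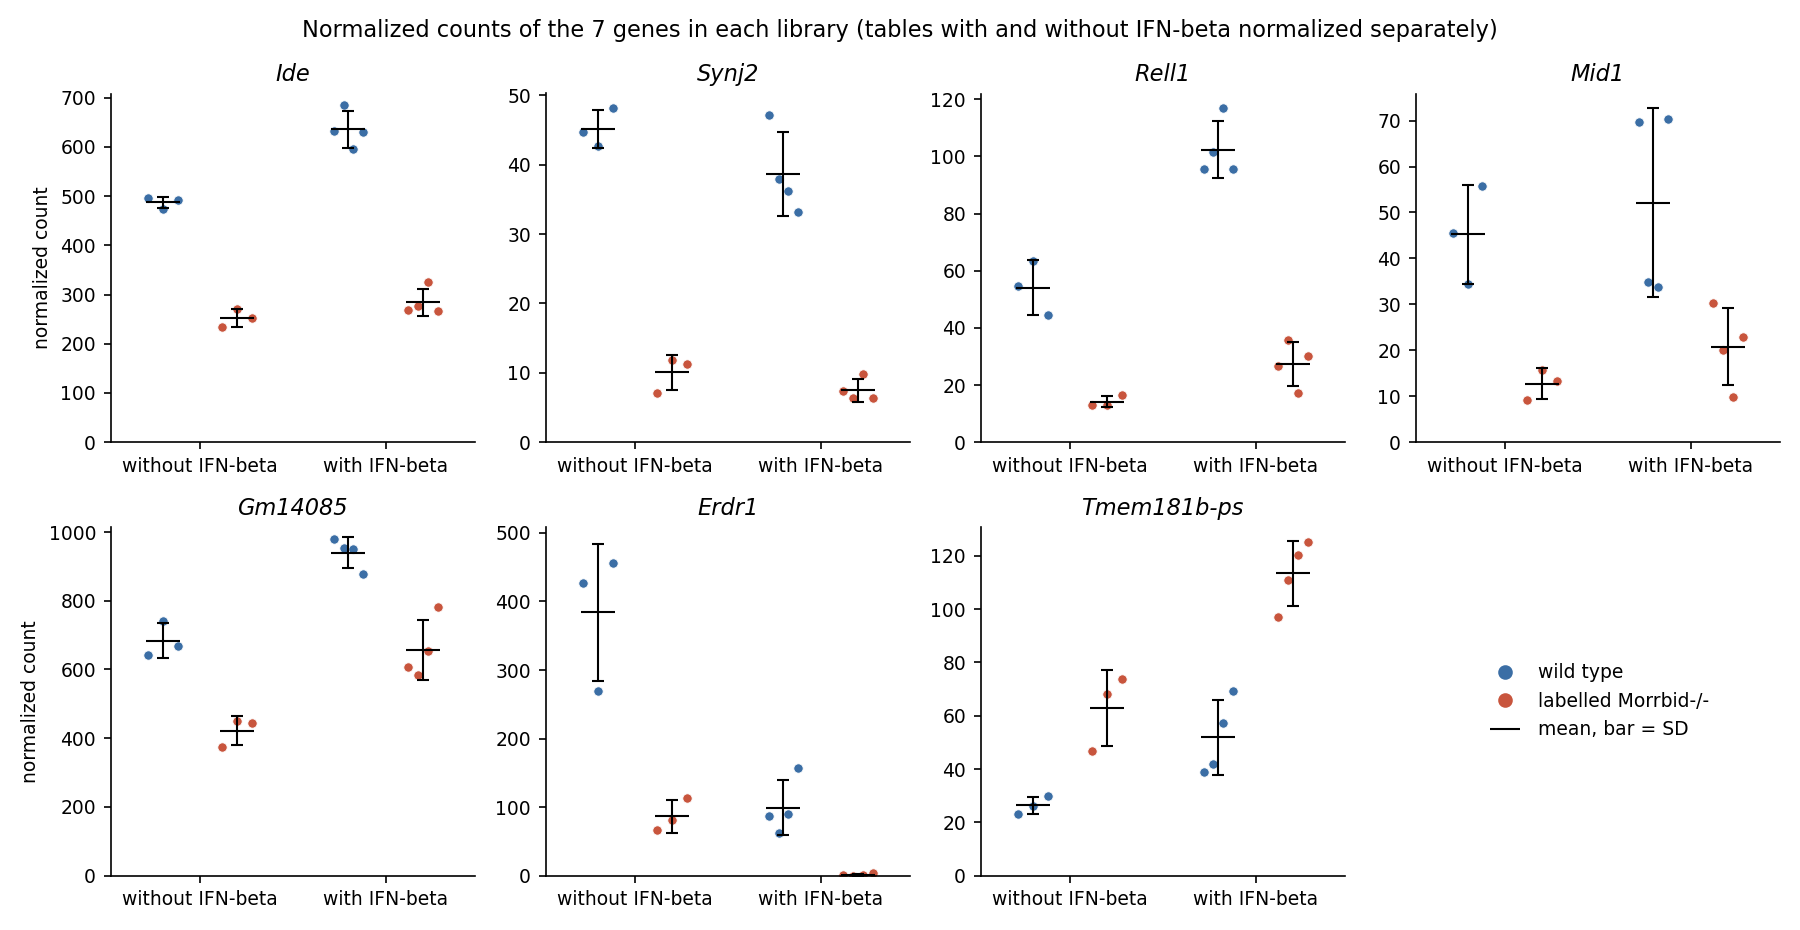
Normalized counts (y axis, linear from 0) of the 7 genes in each library, without and with IFN-beta; points are libraries, the black dash is the group mean and the bar its SD. In every panel the 2 genotypes are apart in both settings: 6 genes are lower in the knockout-labelled libraries, and Tmem181b-ps is higher.

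All 7 genes reached the mean normalized count of 10 needed for testing in both tables, but with IFN-beta 5 of 7 had both group means above it, since Erdr1 and Synj2 were below it in the knockout-labelled libraries. Without overlap between genotypes were 7 of 7 in either setting, beside 10.9% of all tested genes without IFN-beta and 15.2% with it. That count follows from how the genes were chosen. In the whole tables, limma called 0.635% of 9290 genes by genotype without IFN-beta (0.538% higher, 0.0969% lower) and 10.1% of 9964 genes with it (5.25% higher, 4.84% lower). The split with IFN-beta depends on the scaling: 52.0% of the calls were higher with the deposited values, and 68.0% (730 higher, 344 lower) with all libraries scaled to equal totals. Without knockout-labelled replicate 2, the 59 calls without IFN-beta became 39 and the 1005 with it became 609. In both settings and the same direction 12 of 9078 genes were called, 0.132%. Of those 12, the 6 lower ones are the 6 lower genes described here, and the 6 higher ones are Tmem181b-ps, Ms4a4c, Iigp1, Gm4070, Gbp10 and Ly6a. Nearest outside among lower genes was Pcsk1, with log2 differences of -1.10 and -1.35, and nearest inside was Mid1. Among higher genes the nearest outside was Cd44, at 0.92 without IFN-beta and 0.89 with it.

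Levels were compared between genes per length, as RPKM, reads per kilobase of exon scaled to the recovered reads of the library. In wild type without IFN-beta the order was Erdr1 at 211 ± 61.1, Gm14085 at 56.7 ± 5.16, Ide at 26.9 ± 1.76, Rell1 at 5.79 ± 0.83, Mid1 at 2.81 ± 0.80, Tmem181b-ps at 2.62 ± 0.48 and Synj2 at 2.25 ± 0.26 (SD, n = 3). The last 3 do not differ beyond their spread. With IFN-beta, Gm14085 was first in wild type at 27.8 ± 1.23, followed by Erdr1 at 19.3 ± 7.93 and Ide at 12.5 ± 0.76, and Synj2 was last at 0.68 ± 0.10 (SD, n = 4). Erdr1 and Ide differed there by less than the SD of Erdr1. In the knockout-labelled libraries with IFN-beta the lowest were Erdr1 at 0.27 ± 0.31 and Synj2 at 0.14 ± 0.03, while Tmem181b-ps stood at 4.11 ± 0.42, above Rell1 at 1.08 ± 0.31.

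The change of each log2 difference with IFN-beta is built from the same differences that chose the genes, so for the 7 it is a description with no test. One limma fit of all 14 libraries gave the estimates, and it called 1.33% of 9078 genes. For Erdr1 the estimate was -3.41 (SE 0.49) with a pseudocount of 1 and -1.91 (SE 0.34) with a pseudocount of 5. Its size therefore depends on the pseudocount, since the low group rests on 0 to 4 reads per library, and the ratios of reads given above do not use one. For Ide the estimate was -0.21 (SE 0.12) and for Gm14085 0.17 (SE 0.13). Mid1 had the widest error of the other 6, 0.46 (SE 0.46).

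**Figure D2:**
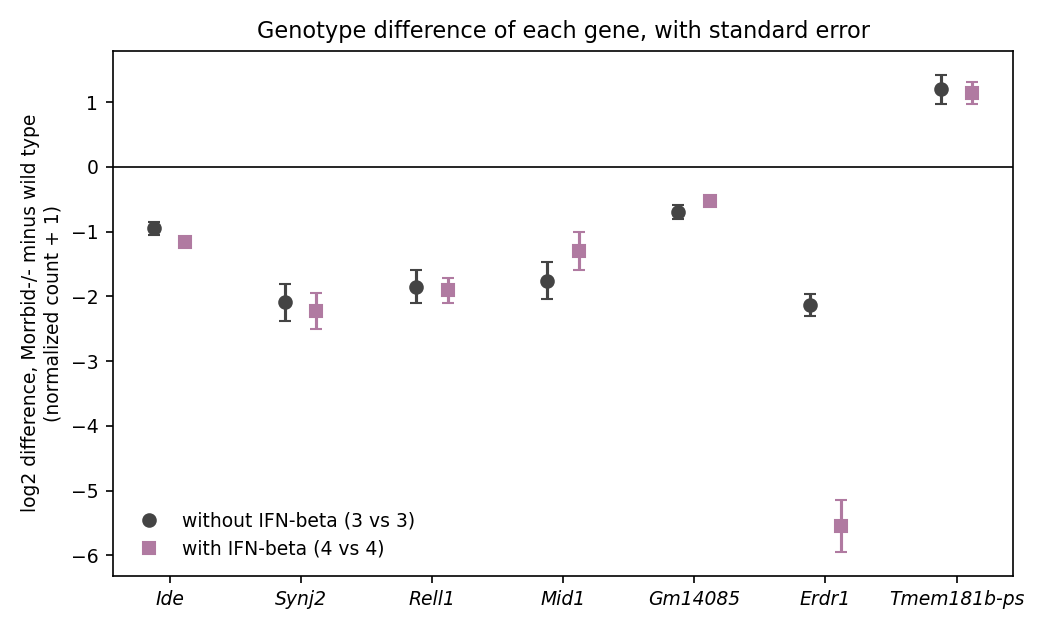
Log2 difference of normalized count + 1, knockout-labelled libraries minus wild type (y axis), for each of the 7 genes (x axis); circles are without IFN-beta, squares with it, and bars are the SE from limma. The pairs lie within about 0.5 of each other except for Erdr1, at -2.13 and -5.55.

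Positions were then compared. The 7 genes lie on 5 chromosomes, with Erdr1 beside Mid1 on X and Synj2 near Tmem181b-ps on 17. Within 500 kb of any of them, 49 other genes were measured and 26 tested without IFN-beta. Of those tested, limma called 0, beside 0.635% of all genes. Under the same test with IFN-beta, 44 were measured and 29 tested, and 5 were called, 1 higher and 4 lower, which is 17.2% beside 10.1% of all genes. Without knockout-labelled replicate 2, 3 neighbours were called. The median log2 difference of those 29 was -0.05, beside 0.00 over all tested genes.

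Beside Ide, Btaf1, which encodes a TATA-binding-protein-associated ATPase, lies 255 kb away. It was at 2051 ± 83.1 in wild type and 1611 ± 92.4 in the knockout-labelled libraries with IFN-beta (SD, n = 4), and every library of the second group was lower. The log2 difference was -0.35 (SE 0.06, limma adjusted p = 0.000345). Without IFN-beta it stood at 1133 ± 19.8 and 932 ± 51.2 (n = 3, log2 difference -0.28), again without overlap, and did not pass (limma adjusted p = 0.384). Tnks2, which encodes the poly-ADP-ribosylating enzyme tankyrase 2, lies 375 kb away. In wild type with IFN-beta it stood at 1336 ± 68.0, against 1126 ± 70.0 in the knockout-labelled libraries (n = 4). The log2 difference was -0.25 (limma adjusted p = 0.0139). Its means without IFN-beta were 601 ± 23.6 and 538 ± 29.1 (n = 3), without overlap. Tnks2 did not pass there (limma adjusted p = 0.878). The nearest genes were 4931408D14Rik, 4.65 kb away, with 31 reads in wild type and 9 in the other group with IFN-beta, too few to be tested, and Kif11, which encodes a mitotic kinesin. Kif11, 41.8 kb away, overlapped between genotypes and was not called (limma adjusted p = 0.989 and 0.63).

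Fgfbp3, 349 kb from Ide, was looked at after its values were seen and was below the level needed for testing. It had 18, 16 and 12 reads in wild type and 7, 3 and 4 in the knockout-labelled libraries without IFN-beta, and 12, 13, 10 and 14 against 3, 6, 6 and 2 with it. The genotypes did not overlap in either setting. The rate in wild type was 2.64 times (95% interval 1.43 to 5.21) and 3.42 times (1.93 to 6.33) that of the other group, counting error only. A segment of chromosome 19 that holds Ide and Fgfbp3 is known to vary in copy number among C57BL/6J mice. Btaf1, Fgfbp3 and Tnks2 lie on the same side of Ide. Genes nearer to Ide on that side, also named after their values were seen, were not all lower. Marchf5, a ubiquitin ligase gene 44.3 kb away, had 118, 124 and 171 normalized counts in the wild-type libraries without IFN-beta, against 149, 160 and 173. It stood at 726 ± 51.3 and 719 ± 29.1 with IFN-beta (n = 4), overlapped in both settings and did not pass (limma adjusted p = 0.878 and 0.952). Cpeb3, which encodes a regulator of mRNA translation and lies 61.1 kb away, had 10 reads in wild type and 22 in the other group without IFN-beta, too few to be tested, and was at 12.3 ± 3.88 and 14.8 ± 5.15 with it (n = 4, limma adjusted p = 0.759). A330032B11Rik, 72.2 kb away, was at 14.9 ± 1.67 and 15.1 ± 3.32 without IFN-beta (n = 3). No DNA was measured in these libraries, so the part of copy number in these values was not tested.

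Beside Rell1, the nearest measured gene was the long noncoding RNA gene 5830416I19Rik, 76.0 kb away (chr5:64044973-64050226). It had 10, 12 and 16 reads in wild type without IFN-beta and 6, 8, 2 and 6 with it, and 0 reads in all 7 knockout-labelled libraries. All 7 wild-type libraries held reads, 60 in total. With 3 reads over the group put in place of the count of 0, its level would be 10.2-fold lower without IFN-beta and 8.69-fold lower with it. Those 2 values leave out the counting error of wild type. The exact 95% interval of the ratio of reads, which covers counting error only, starts lower, at 7.90 and 6.49. It was below the level needed for testing in both tables. No 75-base stretch of it is shared with another gene. Pgm1 as the tables name it (Pgm2 in RefSeq) is a phosphoglucomutase gene 124 kb from Rell1, also chosen after its values were seen. It stood at 42.8 ± 5.67 and 26.9 ± 7.74 with IFN-beta (n = 4), without overlap, and did not pass (limma adjusted p = 0.0562). Its groups overlapped without IFN-beta, at 32.0 ± 1.37 and 25.2 ± 5.65 (n = 3, limma adjusted p = 0.914). Tbc1d1, the remaining measured neighbour, lies 187 kb from Rell1. In every knockout-labelled library without IFN-beta it was higher, 221 ± 22.1 against 196 ± 4.61 in wild type (n = 3). Wild type stood at 1703 ± 96.8 and the other group at 1515 ± 70.1 with IFN-beta (n = 4), with overlap. Tbc1d1 passed in neither setting (limma adjusted p = 0.908 and 0.0829).

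**Figure D3:**
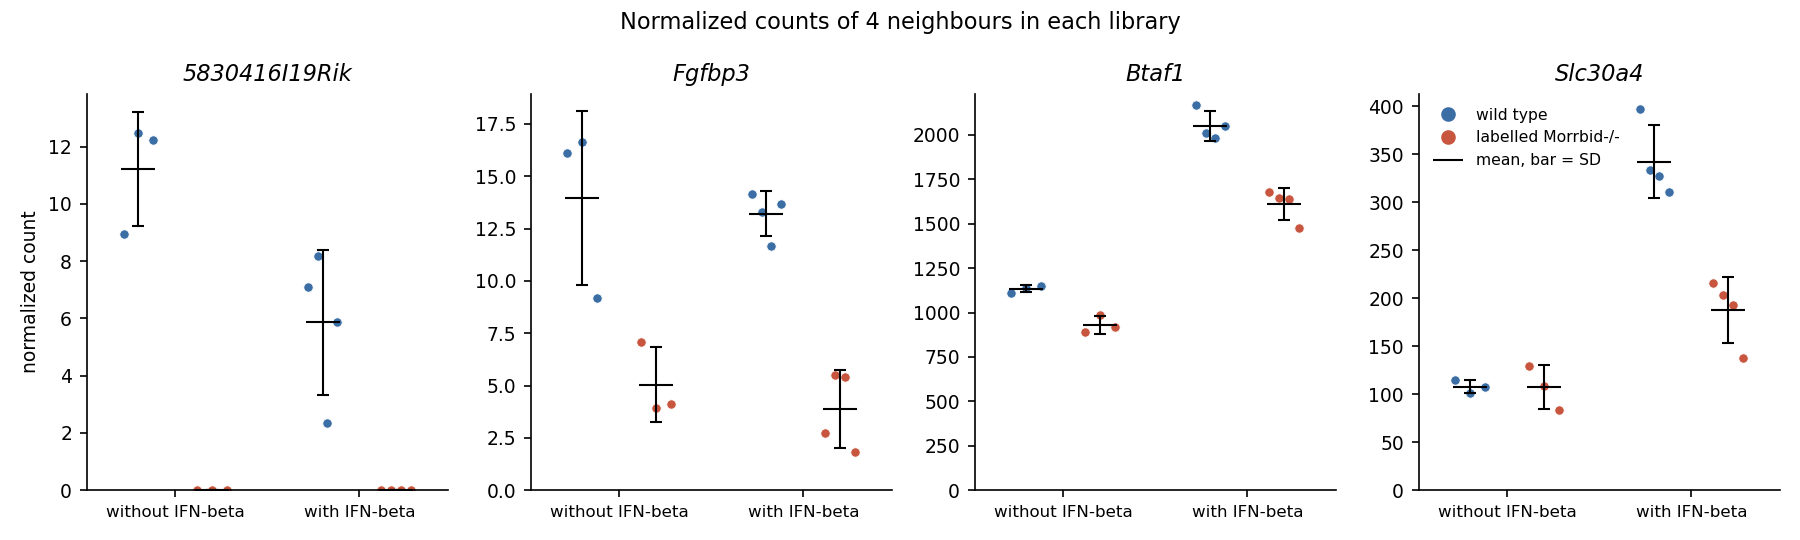
Normalized counts (y axis, linear from 0) of 4 neighbours in each library, without and with IFN-beta; points are libraries, the dash is the mean and the bar its SD. The knockout-labelled libraries are at 0 for 5830416I19Rik and below wild type for Fgfbp3 and Btaf1 in both settings, and for Slc30a4 with IFN-beta.

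Beside Synj2, Gtf2h5, which encodes a subunit of the repair and transcription factor TFIIH, lies 24.1 kb away. With IFN-beta it stood at 64.0 ± 3.45 in wild type and 43.7 ± 5.85 in the knockout-labelled libraries (n = 4, log2 difference -0.55, limma adjusted p = 0.0336), a call lost under 9 of 18 other settings. Without IFN-beta it read 38.4, 32.3 and 24.5 against 31.4, 45.8 and 34.8 and did not pass (limma adjusted p = 0.953). Snx9, 9.32 kb away, and Serac1, which overlaps Synj2 and shares 2.60% of its stretches, were not called in either setting (limma adjusted p of 0.769 or more). Beside Tmem181b-ps, Ezr, which encodes the membrane-cytoskeleton linker ezrin, lies 287 kb away. With IFN-beta it stood at 1693 ± 180 in wild type and 2208 ± 88.2 in the knockout-labelled libraries (n = 4, log2 difference 0.39, limma adjusted p = 0.000365). The Ezr groups overlapped without IFN-beta, at 540 ± 43.3 and 562 ± 47.9 (n = 3, limma adjusted p = 0.972). Dynlt1b, a dynein light chain gene that overlaps Tmem181b-ps, stood at 27.9 ± 11.3 and 43.7 ± 8.78 with IFN-beta and did not pass (limma adjusted p = 0.0843). Of its 75-base stretches, 82.6% are shared with other genes, most with Dynlt1a and Dynlt1c. Gm2808, 58.1 kb away, had 12 and 14 reads in all with IFN-beta.

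Beside Mid1 and Erdr1 few genes were measured. The long noncoding RNA G530011O06Rik overlaps Mid1, shares 11.4% of the stretches of Mid1 and lies 31.6 kb from Erdr1. It stood at 37.5 ± 9.91 and 36.5 ± 5.84 without IFN-beta (n = 3), and the groups overlapped (limma adjusted p = 0.994). Hccs, which encodes holocytochrome c synthase, 365 kb from Mid1, was at 125 ± 3.36 and 129 ± 5.02 without IFN-beta and at 211 ± 24.9 and 187 ± 25.6 with it. It was not called in either setting (limma adjusted p = 0.979 and 0.346).

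Beside Gm14085, Slc30a4, which encodes a zinc transporter and lies 153 kb away, was lower in the knockout-labelled libraries with IFN-beta. Wild type read 398, 334, 327 and 311, and the other group 216, 203, 193 and 138 (log2 difference -0.88, SE 0.12, limma adjusted p = 2.37e-05). Without IFN-beta the groups overlapped, at 108 ± 6.74 and 107 ± 22.9 (n = 3). The genotype effect differed between stimulations (limma interaction -0.85, SE 0.21, adjusted p = 0.0287). Between Gm14085 and Morrbid, limma called 0 of 29 tested genes without IFN-beta, beside 0.635% of all genes. With IFN-beta it called 5 of 31 (16.1%), all lower, beside 10.1% of all genes called and 4.84% called lower. They were Slc30a4, Bcl2l11, Sppl2a, Trpm7 and Cops2. Bcl2l11, the gene of the death-promoting BCL2 relative BIM, was at 665 ± 77.3 in wild type and 412 ± 58.2 in the knockout-labelled libraries (n = 4, log2 difference -0.69, limma adjusted p = 3.14e-05).

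**Figure D4:**
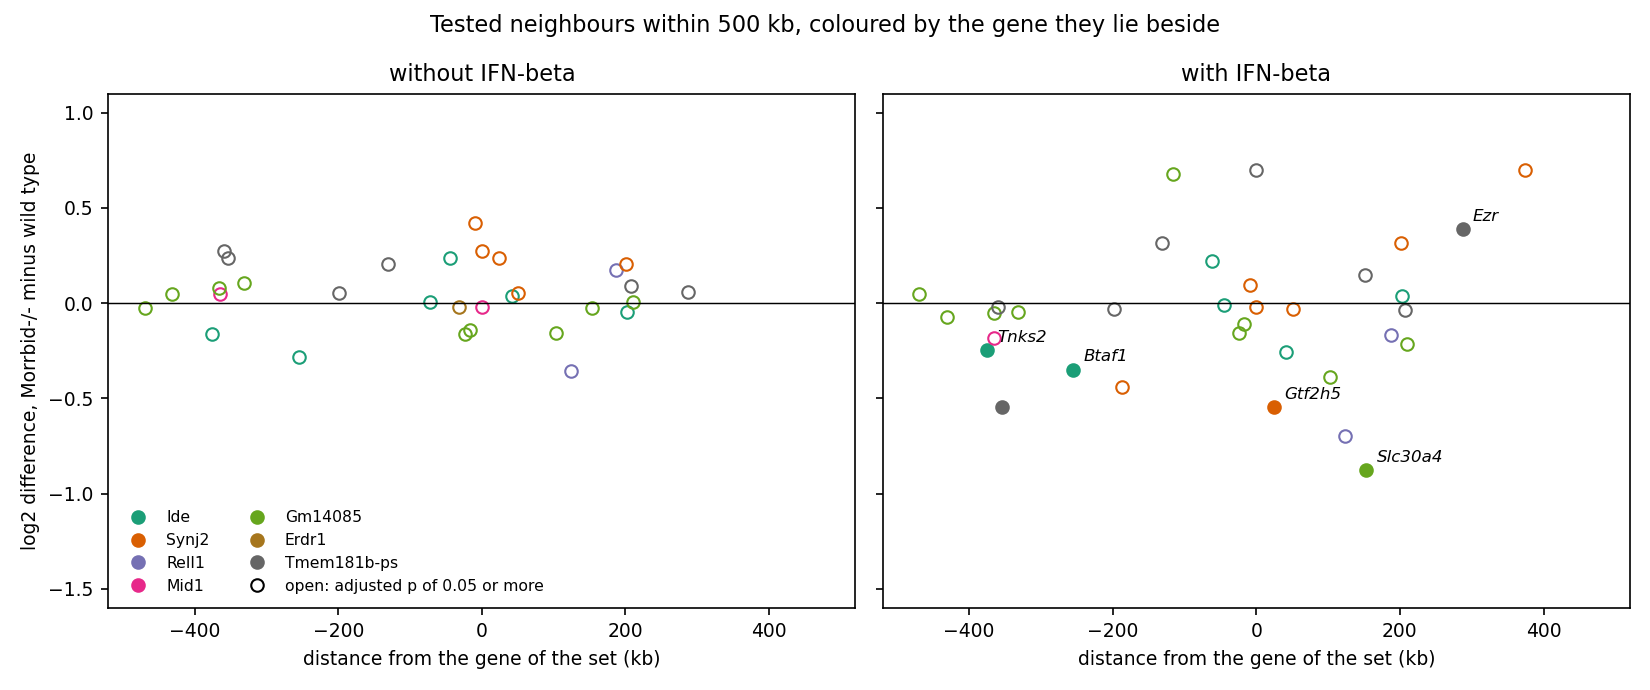
Log2 difference, knockout-labelled libraries minus wild type (y axis), of each tested neighbour within 500 kb against its distance in kb from the gene it lies beside (x axis, negative toward lower positions); filled points have a limma adjusted p below 0.05, and genes near both Synj2 and Tmem181b-ps appear once for each. Without IFN-beta none is filled, and with it Tnks2, Btaf1, Gtf2h5, Slc30a4 and Ezr are.

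Of the 7 genes, 5 have a promoter window in RefSeq (GRCm38.p6, 250 bases before to 50 after the start), 8 windows in all. Both strands were searched for GAAANNGAAA, the core of the interferon-stimulated response element, since one setting held IFN-beta. It was found in 1 window, that of Gm14085, and in 3.44% of all 32851 windows of the same length. The Gm14085 window is shown with the match in capitals (plus strand, chr2:122484691-122484990), and such a match is a description of letters, not a binding site.
Gm14085 promoter: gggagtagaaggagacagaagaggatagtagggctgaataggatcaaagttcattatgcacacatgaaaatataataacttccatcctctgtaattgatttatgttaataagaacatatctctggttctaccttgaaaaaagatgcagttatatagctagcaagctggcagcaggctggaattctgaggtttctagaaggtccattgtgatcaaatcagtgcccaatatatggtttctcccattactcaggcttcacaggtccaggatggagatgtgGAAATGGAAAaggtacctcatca

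Genes whose values followed each of the 7 most closely were ranked by Pearson's r over the 14 libraries, after centring each table, among genes averaging 50 or more in both. The libraries fall into the genotypes, so r is a description of a shared genotype difference. Closest to Ide was Btaf1 (r = 0.95), and closest to Synj2 was Ide (r = 0.99). Chromosome 19, where Ide and Btaf1 lie, holds 3.46% of the genes compared. Rell1 was followed by Rhoh (r = 0.95), which encodes a small GTPase of T cell receptor signalling and lies 1.89 Mb away on chromosome 5, a chromosome that holds 6.39% of the genes compared. Gm14085 was followed by Itga6 (r = 0.96), an integrin gene 50.6 Mb away on chromosome 2, which holds 7.93% of the genes compared. Tmem181b-ps was followed by H2-Q7 (r = 0.95), a class Ib histocompatibility gene 29.0 Mb away on chromosome 17, which holds 4.94% of them. Erdr1 was followed by Pydc3 (r = 0.95) on chromosome 1 and Mid1 by Rhoh (r = 0.87). The second in line were A930005H10Rik for Ide, Btaf1 for Synj2, Itga6 for Rell1, Ide for Gm14085, LOC68395 for Tmem181b-ps, Tpp2 for Erdr1 and Riok2 for Mid1.

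Genes were counted in 8 lists with 50 genes. Most lists hold relatives or partners of the 7 by family or function. The others hold pseudoautosomal genes and genes known to differ among C57BL/6 lines. Without IFN-beta 38 were measured, 28 tested and 0 called by limma, beside 0.635% of all genes. With IFN-beta 34 were measured and 29 tested, and 4 (13.8%) were called, all higher. Over all genes 10.1% were called, 5.25% higher. Of the 4 calls, 3 were in the list of genes known to differ among C57BL/6 lines, where 3 of 3 tested were called. The other was in the list of inositol 5-phosphatases. None of 6 tested M16 metalloproteases, relatives of Ide, was called in either setting, and their median log2 difference with IFN-beta was 0.00. The one with the smallest p was Uqcrc1 at 338 ± 26.7 and 381 ± 18.1 (limma adjusted p = 0.186). Likewise 0 of 3 tested relatives and partners of Mid1 were called in either setting; Mid1ip1 came closest (13.4 ± 1.33 and 22.1 ± 5.61 with IFN-beta, limma adjusted p = 0.144), and Ppp2ca, the phosphatase subunit that Mid1 targets, was at 2906 ± 52.2 and 2724 ± 166. For the RELT family and its kinases 0 of 3 and 0 of 4 were called, with Stk39 closest with IFN-beta (limma adjusted p = 0.469).

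Among inositol 5-phosphatases and a synaptojanin 2 binding protein, 0 of 9 were called without IFN-beta and 1 of 9 with it, Inpp5f, an inositol phosphatase. With IFN-beta it stood at 115 ± 7.71 in wild type and 147 ± 3.16 in the knockout-labelled libraries (n = 4, log2 difference 0.35, limma adjusted p = 0.0411), a call lost under 10 of 18 other settings. The 1 call is 11.1% of the genes tested in the list, beside 10.1% of all genes. The 3 tested nucleoside transporters were not called in either setting, with Slc28a2, given above, closest. The 1 tested Tmem181 copy was Tmem181a, and of 4 pseudoautosomal genes 1 was measured without IFN-beta, Asmt, and was not tested.

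The eighth list held 7 genes known to differ in sequence or level among C57BL/6 lines. Like the others, it was chosen with earlier results of these data known, so its calls are a description. Of these genes, 4 were measured and 3 tested. The one measured but not tested was Fgfbp3, given above, which was lower in the knockout-labelled libraries in both settings. Nnt, a mitochondrial transhydrogenase gene known to carry a deletion in C57BL/6J, read 38.4, 37.5 and 49.7 in wild type against 41.6, 45.8 and 66.5 without IFN-beta (limma adjusted p = 0.937). With IFN-beta it read 42.5, 53.2, 40.9 and 27.3 against 78.8, 83.4, 81.8 and 78.5, higher by 1.00 on the log2 scale (SE 0.18), with a limma adjusted p of 0.000677. Every knockout-labelled library was higher there. Wdfy1, an adaptor gene of Toll-like receptor signalling, was at 62.9 ± 15.1 and 103 ± 10.5 without IFN-beta (n = 3, limma adjusted p = 0.0715) and at 129 ± 25.2 and 245 ± 29.5 with it (n = 4, log2 difference 0.93, limma adjusted p = 3.5e-05). Cyfip2, an actin regulator, was higher in the knockout-labelled libraries with IFN-beta by 0.22 on the log2 scale (limma adjusted p = 0.0207), a call lost under 6 of 18 other settings. Subline and genotype cannot be told apart in these libraries.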

How the data were processed

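Total RNA libraries from 14 samples were read as 75-base pairs, per the labels' protocols. The values the authors deposited are a non-negative signal, normalized counts per gene. Trimmomatic, featureCounts, STAR 2.5 and DESeq2 are listed in the submitters' processing notes, as are GRCm38 and mm10, with no role given. Filters and annotation release: not given in the sources used here. Dividing each library by its step gave whole reads, within 0.01, for every value. Of 15036 gene identifiers, 14359 matched RefSeq (GRCm38.p6), the source of the coordinates.

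Within a table, limma 3.58.1 (R 4.3.3) compared the genotypes with a mean-variance trend on log2(normalized count + 1) of genes with a mean of at least 10, with Benjamini-Hochberg adjustment over all genes and a threshold of 0.05. Alternatives on the recovered reads were DESeq2 1.42.0 and edgeR 4.0.16, and on the normalized counts other pseudocounts, filters, scalings, a replicate block, the 16S rRNA share as covariate and leaving out each library. The code was tested on simulated data. The members and lists were chosen with earlier results of these data known. The genes named were the 7 members, their nearest measured neighbours, neighbours within 500 kb and genes toward Morrbid that passed, the 2 genes most alike, and in each list the passing genes or the one with the smallest p.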

Additional observations from a re-analysis of the deposited data

Results flagged for a closer look

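The genotype effect on Slc30a4, 153 kb from Gm14085, differed between stimulations: the log2 difference changed by -0.85 with IFN-beta (limma interaction, SE 0.21, adjusted p = 0.0287).

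In groups of 4 libraries, the gap of the highest or lowest library to the next was compared with the range of the group for the 7 genes and the neighbours named, 55 groups in all, where chance alone would mark about 1 in 20. There were 2 such groups. For Ide with IFN-beta, replicate 3 of those labelled Morrbid-/- read 325, beside 267 to 276 in the others, a gap of 0.852 of the range. For Slc28a2 with IFN-beta, replicate 4 of those labelled Morrbid-/- read 438, beside 347 to 356, a gap of 0.908 of the range; in that library Gm14085 was also the highest of its group, at 783.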

How the results depend on the processing

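No alternative reversed a genotype difference of the 7 genes. Of 232 alternative values, 228 moved by less than 1 SD between replicates, and 4 moved by more, all with a pseudocount of 5: Erdr1 with IFN-beta to -3.99, Synj2 to -1.75 and -1.80 without and with IFN-beta, and Rell1 without it to -1.61. The change of the Erdr1 difference with IFN-beta, a description, lay between -4.06 and -1.91, the latter with a pseudocount of 5.

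Counts of calls moved more. Without IFN-beta the 59 calls became 103 with the 16S share as covariate, 17 without the trend and 39 to 70 when a library was left out, lowest without replicate 2 labelled Morrbid-/-. With IFN-beta the 1005 calls became 305 without the trend and 609 to 1019 when a library was left out, lowest without replicate 2 labelled Morrbid-/-. The 121 calls of the difference between stimulations became 190 with the covariate, 66 without the trend and 97 to 143 with a library left out. Among neighbours within 500 kb without IFN-beta, the 0 calls became 1 with the covariate (Btaf1) and 1 without a filter (5830416I19Rik), and 0 in every fit with a library left out. With IFN-beta the 5 neighbour calls became 3 without the trend, 2 within 250 kb and 3 to 6 with a library left out, lowest without replicate 2 labelled Morrbid-/-. The cause of these changes was not tested.

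Same-numbered libraries of the genotypes did not deviate together in every pair (correlations -0.023 to 0.378 without and 0.03 to 0.242 with IFN-beta), so the pairing was not taken as given, and the labels do not say that a number marks a shared animal or batch. As a hint from the data, not the design, 6 of 7 wild-type libraries and 5 of 7 labelled Morrbid-/- correlated best with their own number. With a replicate block, calls were 169 without IFN-beta, within 1.5 times the main count when IFN-beta was present, and 311 for the interaction; neighbour calls were 1 and 8. Of named neighbours, Gtf2h5 missed the threshold under 9 of 18 alternatives, Tnks2 under 2 and Ezr under 1; Inpp5f missed it under 10 and Cyfip2 under 6, while Btaf1, Slc30a4, Nnt and Wdfy1 passed under all 18 with IFN-beta.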
